A study of Mus musculus with 30 samples.

Results

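The genotypes were compared here in control skin, before any TPA inflammation, by setting the 3 D6-deficient day 0 arrays against the 3 WT day 0 arrays across all probe sets. These are 6 of the 30 arrays of the study, and neither the arrays nor the probe sets were chosen by their values. The other 24 arrays, 3 for each genotype and day, are of skin that was painted 3 times with 50 μM TPA, a phorbol ester that inflames skin, and taken 1, 2, 4 or 6 days later. Both day 0 groups were shaved back skin of female mice aged 8 to 12 weeks, of the strain labelled 129–C57BL/6, and each array held the RNA of a separate mouse. The control arrays are titled untreated, whereas their descriptions and the methods say that the skin was painted with acetone, the solvent of TPA. The labels give no allele for the D6-deficient mice, and the sources used here do not say whether the WT mice were their littermates.

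D6, encoded by Ccbp2 (now Ackr2), is an atypical chemokine receptor that binds inflammatory CC chemokines and carries them into the cell for degradation without the usual signaling, and in skin it is best known from lymphatic endothelium. Whole back skin holds epidermis, hair follicles, sebaceous glands, dermis, fat and muscle. In resting epidermis, basal cells make Krt5 and Krt14, and the cells above them go on to build a cornified envelope. Wounded or inflamed epidermis adds the stress keratins, small proline-rich proteins, stefins and antimicrobial proteins, and fat and sebaceous glands make fatty acids from citrate.

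Values are log2 intensities, and differences are D6-deficient minus WT on that scale, so that a difference of 1 is a 2-fold change in intensity. Arrays of a genotype correlated with each other at 0.986 to 0.993 over the tested probe sets, and arrays of different genotypes at 0.981 to 0.989, and the SD over 3 arrays of 1 genotype had a median of 0.144. By limma, 44 of 36029 tested probe sets (0.122%) were called, with an adjusted p below 0.05 and a difference of more than 3-fold, 19 higher (0.0527%) and 25 lower (0.0694%) in D6-deficient skin. They belong to 40 genes, and 4 have no symbol. Without the fold threshold, 565 probe sets (1.57%) passed, 257 higher (0.713%) and 308 lower (0.855%), and this count lay between 141 and 494 when any single day 0 array was left out. In 37 of the 44 called probe sets the 3 D6-deficient arrays lay all above or all below the 3 WT arrays. The share was 21.6% over all tested probe sets, but the 44 were chosen on these same arrays, so nothing is read from the comparison. The spike-in hybridization controls separate the arrays into a brighter and a dimmer set, each with day 0 arrays of both genotypes, and the differences of the 44, which were chosen on these arrays, had the same sign within both sets.

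**Figure D1:**
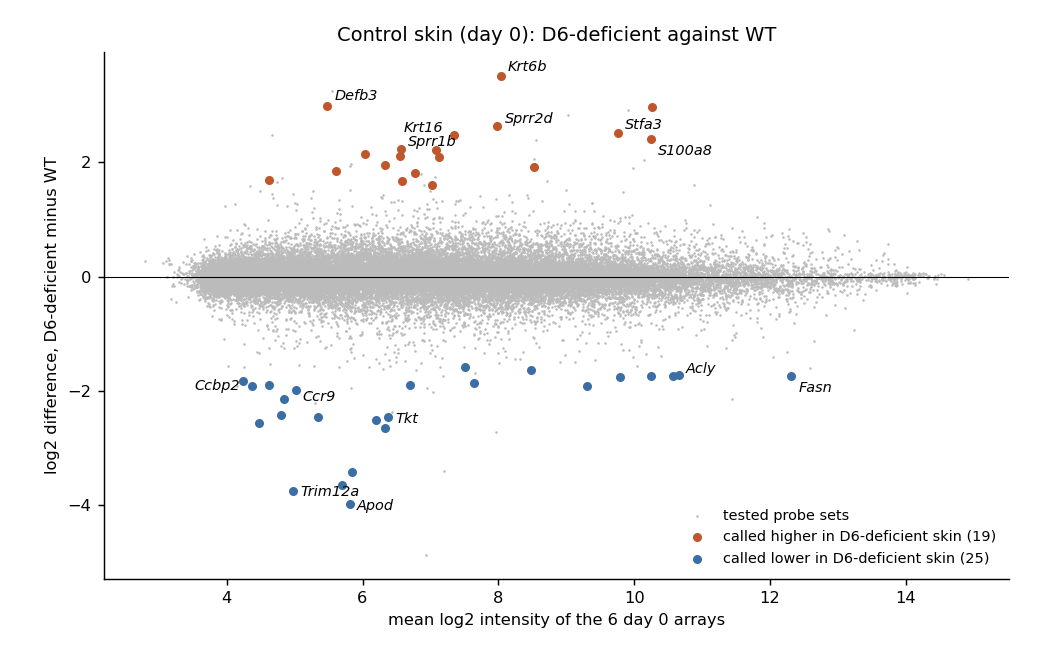
Each point is 1 of the 36029 tested probe sets. The x axis is the mean log2 intensity of the 6 day 0 arrays and the y axis the log2 difference, D6-deficient minus WT. The 19 probe sets called higher are orange and the 25 called lower are blue, from Krt6b at 3.51 to Apod at -3.98. Gray points as far from 0 as the colored ones did not pass the test.

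The probe sets called higher depended on single arrays more than those called lower. In all, 27 were called without D6-deficient replicate 1, 28 without D6-deficient replicate 3 and 68 without D6-deficient replicate 2. Leaving out D6-deficient replicate 3 left 7 probe sets called higher, leaving out WT replicate 2 left 9, leaving out D6-deficient replicate 1 left 10, and leaving out D6-deficient replicate 2 gave 34. The count called lower stayed between 17 and 34 when any single day 0 array was left out. When only the 6 day 0 arrays were fitted, limma called 8 probe sets higher and 31 lower.

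The probe sets of the D6 gene were examined first. The called, and dimmest, of the 3 probe sets of Ccbp2 read 4.98, 5.33 and 5.70 on the WT arrays and 3.43, 3.36 and 3.48 on the D6-deficient arrays. The groups did not overlap, and the difference was -1.91 (SE 0.25, adjusted p = 1.9e-04). The D6-deficient arrays lay below 3.72, the mean under which probe sets were left out as dim, so no fold is given for it. The D6-deficient means of the called probe sets of Trim12a, Lztfl1, Adamdec1 and Cacna2d1, described further on, were also below that level. On the second probe set the difference was -1.13 (SE 0.22, adjusted p = 0.0079), and this adjusted p reached 0.057 without WT replicate 2 and was under 0.05 in 4 of the 6 fits that each left out 1 day 0 array. The brightest probe set read 8.10, 8.04 and 8.54 on the WT arrays and 7.99, 8.05 and 8.09 on the D6-deficient arrays and did not pass the test, at -0.18 (SE 0.25, adjusted p = 0.81). On 2 of 3 probe sets the D6 signal was therefore below WT without overlap, and on the third the genotypes overlapped. Over the other atypical chemokine receptors on the array, no probe set had an adjusted p under 0.05.

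The inflammatory CC chemokines that D6 binds did not pass the test in control skin. None of their 10 probe sets had an adjusted p under 0.05 by limma, and 3 had an unadjusted p under 0.05, as did 14.3% of all tested probe sets. The median difference was -0.09, against a median of all tested probe sets of -0.0034. Ccl17, a ligand of Ccr4, read 5.76, 5.52 and 5.93 on the WT arrays and 6.68, 6.83 and 6.43 on the D6-deficient arrays, a difference of 0.91 (SE 0.41, adjusted p = 0.31). Ccl22, the other ligand of that receptor, gave 0.73 (SE 0.26, adjusted p = 0.16). The D6-deficient arrays were above all WT arrays for both of these genes. The monocyte chemoattractant Ccl2 gave 0.06 (SE 0.23, adjusted p = 0.94) and the eosinophil chemoattractant Ccl11 -0.42 (SE 0.37, adjusted p = 0.67). Of 35 probe sets of other chemokines, 1 passed (1.57% of all tested probe sets did), Ccl25 on the dimmer of its 2 probe sets, at -0.60 (SE 0.15, adjusted p = 0.038). Ccl20, which attracts Ccr6-bearing cells to epithelium, read 5.86, 5.73 and 6.22 on the WT arrays and 7.14, 6.76 and 7.40 on the D6-deficient arrays without overlap and gave 1.16 (SE 0.37, adjusted p = 0.11). Cxcl10, an interferon-induced chemokine, gave 0.91 (SE 0.24, adjusted p = 0.051), also without overlap.

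Genes of stressed and cornifying epidermis made up most of what was called higher. Of the 19 probe sets called higher, 12 belong to stress keratins, small proline-rich proteins, late cornified envelope proteins, stefins, clade B serpins, antimicrobial proteins or cytokines, and 7 do not. When only the 6 day 0 arrays were fitted, none of the 12 had an adjusted p under 0.05 by limma. The values ran from 0.054 for Defb3 to 0.26 for S100a8. The 12 shared an order of arrays. D6-deficient replicate 3 was the highest and D6-deficient replicate 2 the lowest array of its genotype for all 12, WT replicate 1 was the highest WT array for 11 of them, and WT replicate 2 the lowest for 10. In whole skin, more cells of a type and more RNA per cell cannot be told apart.

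Krt6b encodes a stress keratin of the outer root sheath and of wounded epidermis. It read 8.65, 4.15 and 6.05 on the WT arrays and 9.42, 8.21 and 11.75 on the D6-deficient arrays, a difference of 3.51 (SE 0.79, adjusted p = 0.024). At 11.4-fold this was the largest of the 19 higher differences, but WT replicate 1 lay above D6-deficient replicate 2, and the adjusted p reached 0.15 without D6-deficient replicate 3 and was under 0.05 in 2 of the 6 fits without 1 array. Krt16, another stress keratin, read 6.85, 5.43 and 6.06 on the WT arrays and 8.50, 7.78 and 9.49 on the D6-deficient arrays. Its groups did not overlap, and it differed by 2.48 (SE 0.54, adjusted p = 0.018), with an adjusted p of up to 0.12 without D6-deficient replicate 3 and under 0.05 in 2 of the 6. All 7 tested probe sets of the 4 stress keratin genes had a positive difference, with a median of 1.08, and 2 had an adjusted p under 0.05 (0.713% of all tested probe sets were higher at that threshold), or 0 without WT replicate 2. Krt6a on its brightest probe set gave 1.14 (SE 0.47, adjusted p = 0.25) and Krt17 gave 0.77 (SE 0.21, adjusted p = 0.062). Their D6-deficient arrays were all above their WT arrays, and neither passed the test.

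The small proline-rich proteins are cross-linked into the cornified envelope, and 3 of their 9 tested probe sets were called higher (0.0527% of all), with 8 of 9 differences positive and a median of 1.12. Sprr2d read 8.19, 5.32 and 6.49 on the WT arrays and 9.10, 8.19 and 10.62 on the D6-deficient arrays. WT replicate 1 was level with D6-deficient replicate 2, and the difference was 2.63 (SE 0.53, adjusted p = 0.013). Sprr1b read 6.33, 4.51 and 5.51 on the WT arrays and 7.82, 7.28 and 7.95 on the D6-deficient arrays, without overlap, and differed by 2.23 (SE 0.54, adjusted p = 0.036). Sprr2h read 7.06, 4.91 and 6.27 on the WT arrays and 8.16, 7.52 and 8.85 on the D6-deficient arrays, also without overlap, and differed by 2.10 (SE 0.45, adjusted p = 0.018). None of the 3 kept an adjusted p under 0.05 without WT replicate 2. Other arrays mattered too, and the adjusted p of Sprr2d was highest without D6-deficient replicate 3, at 0.095. Of the 6 fits that each left out 1 array, 3 had an adjusted p under 0.05 for Sprr2d, 2 for Sprr1b and 3 for Sprr2h. Sprr2f gave 1.95 (SE 0.59, adjusted p = 0.096) without overlap, and Sprr3, the member with a negative difference, gave -0.17 (SE 0.28, adjusted p = 0.85). The Sprr2 genes are close copies of each other, so a probe set of one may also read its neighbors.

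The promoters of the 3 called Sprr genes are shown because each holds a match to the letters TGANTCA. These letters are a loose form, with any middle base, of the binding motif of the AP-1 factors that TPA activates. The middle base is A in Sprr1b and G in Sprr2d and Sprr2h. Windows of 300 bases, from 250 before to 50 after the start of the gene, were taken from RefSeq (GRCm38.p6) and matched by symbol for 12 of the 19 genes called higher and 17 of the 21 genes called lower. Read on both strands, the motif was in 4 of the 12 genes called higher, namely Sprr1b, Sprr2d, Sprr2h and Stfa3, in 0 of the 17 called lower and in 8.97% of all 27025 genes with a window, or 7.81% of all 32851 windows. In Stfa3 the match lies 30 bases after the start and is not printed. The 250 bases before the start are given 5′ to 3′ on the strand of the gene, with the AP-1 letters in capitals, and a match describes the letters only.
Sprr1b (chr3:92438780-92439029, - strand): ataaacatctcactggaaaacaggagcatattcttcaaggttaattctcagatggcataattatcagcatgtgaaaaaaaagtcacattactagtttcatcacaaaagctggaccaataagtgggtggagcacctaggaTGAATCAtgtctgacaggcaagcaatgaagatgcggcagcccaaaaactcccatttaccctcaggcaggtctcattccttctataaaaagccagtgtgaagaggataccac
Sprr2d (chr3:92338890-92339139, + strand): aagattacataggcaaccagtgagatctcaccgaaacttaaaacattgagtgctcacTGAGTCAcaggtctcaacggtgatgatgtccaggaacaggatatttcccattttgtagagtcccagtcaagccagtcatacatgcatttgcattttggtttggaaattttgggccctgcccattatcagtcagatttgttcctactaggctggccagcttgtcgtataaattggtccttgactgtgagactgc
Sprr2h (chr3:92385435-92385684, + strand): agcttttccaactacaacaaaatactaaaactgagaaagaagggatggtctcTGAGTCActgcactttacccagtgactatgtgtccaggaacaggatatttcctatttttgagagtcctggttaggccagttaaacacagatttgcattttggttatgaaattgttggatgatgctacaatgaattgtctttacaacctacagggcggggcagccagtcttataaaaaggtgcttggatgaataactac
The matches begin 111 bases before the start in Sprr1b, 193 in Sprr2d and 198 in Sprr2h. All 3 genes lie on chromosome 3, in the epidermal differentiation complex, as do S100a8 and Lce3f. On that chromosome 6 of 1554 tested probe sets were called (0.386%, against 0.122% of all tested probe sets). The 6 include C130079G13Rik, which belongs to none of the epidermal lists.

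Late cornified envelope and barrier genes differed in the same direction, by less. Of 31 tested probe sets, 30 had a positive difference, 5 were higher at an adjusted p under 0.05 (0.713% of all) and 1 was called (0.0527% of all), with a median of 0.60 and 18 of the 31 without overlap, where 10.8% of all probe sets had all D6-deficient arrays above all WT arrays. Lce3f differed by 2.22 (SE 0.53, adjusted p = 0.032), with WT replicate 1 just above D6-deficient replicate 2. Cnfn, or cornifelin, read 9.65, 9.29 and 9.38 on the WT arrays and 10.77, 10.37 and 10.41 on the D6-deficient arrays and differed by 1.08 (SE 0.22, adjusted p = 0.014). Casp14, the protease that processes filaggrin, differed by 1.14 (SE 0.26, adjusted p = 0.024), Lce1f by 0.93 (SE 0.21, adjusted p = 0.025) and Lce1h by 1.05 (SE 0.26, adjusted p = 0.040), all 3 without overlap. Of the 13 probe sets of Lce1 genes, 11 did not overlap, and their differences ran from 0.25 to 1.06. The count of 5 fell to 0 without WT replicate 2 and rose to 7 without WT replicate 1. Flg, which encodes filaggrin itself, read 9.69, 8.03 and 8.79 on the WT arrays and 10.28, 9.50 and 10.16 on the D6-deficient arrays, a difference of 1.14 (SE 0.51, adjusted p = 0.29) that did not pass.

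Stefins A inhibit cysteine proteases. All 4 of their tested probe sets had a positive difference, with a median of 1.92, and 2 were called higher (0.0527% of all). Stfa3 read 9.81, 7.72 and 7.97 on the WT arrays and 10.82, 10.13 and 12.10 on the D6-deficient arrays, without overlap, and differed by 2.52 (SE 0.40, adjusted p = 0.0017). It was the member of these epidermal groups with the lowest adjusted p, and this stayed under 0.05 without any single day 0 array, at up to 0.016, but was 0.11 when only the day 0 arrays were fitted. The probe set shared by BC100530 and Stfa1 read 11.28, 6.96 and 8.10 on the WT arrays and 11.42, 10.84 and 12.99 on the D6-deficient arrays, a difference of 2.97 (SE 0.60, adjusted p = 0.013). Its adjusted p was under 0.05 in 3 of the 6 fits without 1 array. WT replicate 1 was here more than 3 units above the other WT arrays and above D6-deficient replicate 2. The mean over the 4 stefin probe sets was 9.99, 7.94 and 8.37 on the WT arrays and 10.48, 10.02 and 11.36 on the D6-deficient arrays.

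Among antimicrobial proteins, 2 of 14 probe sets were called higher (0.0527% of all tested probe sets were, and 0 of the 14 passed without D6-deficient replicate 3), with 11 positive differences and a median of 0.31. Defb3, a beta-defensin of epithelium, read 4.05, 4.07 and 3.84 on the WT arrays and 6.72, 5.84 and 8.36 on the D6-deficient arrays. The 3 WT arrays lay close together while the D6-deficient arrays were spread out above them, and the difference was 2.99 (SE 0.55, adjusted p = 0.0064), with an adjusted p of 0.055 without D6-deficient replicate 3. S100a8, a calgranulin of neutrophils and of stressed keratinocytes, read 11.15, 7.74 and 8.23 on the WT arrays and 11.07, 10.42 and 12.85 on the D6-deficient arrays. WT replicate 1 lay above D6-deficient replicates 1 and 2, and the difference was 2.41 (SE 0.58, adjusted p = 0.035). Its partner S100a9 gave 2.04 (SE 0.58, adjusted p = 0.076), with the same array high among the WT arrays. The 7 other neutrophil markers, among them Mpo, Elane, Camp, Ltf and Ngp, differed by -0.45 to 0.18, stayed between 3.79 and 6.60 on every array, and had no adjusted p under 0.05. Of the 9 probe sets of that list, S100a8 alone passed, as did 1.57% of all tested probe sets.

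**Figure D2:**
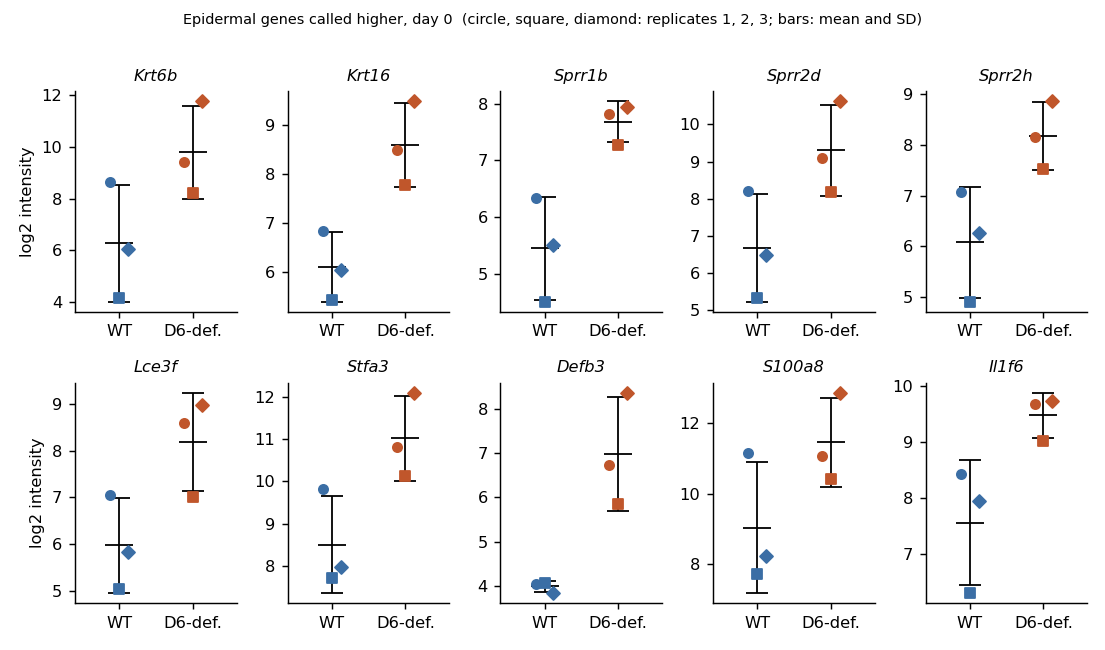
Log2 intensity of 10 epidermal, antimicrobial and cytokine genes called higher at day 0, with the y axis scaled to each gene. Points are the arrays of replicate 1 (circle), 2 (square) and 3 (diamond), and bars the mean and SD of the 3 arrays of a genotype. The diamond is the highest D6-deficient array in every panel. WT replicate 1, the circle, reached the D6-deficient range for Krt6b, Sprr2d, Lce3f and S100a8, and for Defb3 all WT arrays stayed near 4.

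Of the clade B serpins, which inhibit serine and cysteine proteases, 3 of 21 probe sets were higher at an adjusted p under 0.05 (0.713% of all), or 0 without WT replicate 2, and 1 was called (0.0527% of all). The called probe set of Serpinb3b and Serpinb3c, whose signals cannot be separated, read 6.43, 5.63 and 5.19 on the WT arrays and 7.85, 6.38 and 8.05 on the D6-deficient arrays, a difference of 1.68 (SE 0.38, adjusted p = 0.024), and their second probe set 1.49 (SE 0.35, adjusted p = 0.031). Serpinb5, or maspin, differed by 0.70 (SE 0.15, adjusted p = 0.017) on a probe set that is not its brightest. Of 21 cytokine probe sets 17 differences were positive, with a median of 0.54. Il1f6, now called IL-36α, an epithelial cytokine of the IL-1 family, read 8.43, 6.32 and 7.95 on the WT arrays and 9.68, 9.02 and 9.74 on the D6-deficient arrays, without overlap, and was called at 1.92 (SE 0.44, adjusted p = 0.024). The antagonist Il1rn differed by 0.77 (SE 0.19, adjusted p = 0.034). Tslp, an epithelial cytokine that acts on dendritic cells, went the other way and read 7.30, 8.32 and 7.49 on the WT arrays and 6.25, 6.24 and 6.96 on the D6-deficient arrays, a difference of -1.22 (SE 0.30, adjusted p = 0.040). Without WT replicate 2 the adjusted p was 0.15 for Il1f6, 0.14 for Il1rn and 0.21 for Tslp. These were not lost with that array alone: of the 6 fits that each left out 1 array, 3 had an adjusted p under 0.05 for Il1f6, 2 for Tslp and 0 for Il1rn.

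Differences were also positive for keratinocyte markers that are not stress genes. All 16 of their tested probe sets had a positive difference, with a median of 0.48, and 5 had an adjusted p under 0.05 (0.713% of all were higher at that threshold). Krt5 read 12.26, 12.22 and 12.07 on the WT arrays and 12.94, 12.81 and 12.91 on the D6-deficient arrays, a difference of 0.70 (SE 0.14, adjusted p = 0.0099) and larger than the spread of either group. Krt14, its basal partner, gave 0.73 (SE 0.16, adjusted p = 0.017) on the brightest probe set, 0.76 (SE 0.18, adjusted p = 0.027) on the second and 0.51 (SE 0.29, adjusted p = 0.45) on a dim one that overlapped. Trp63, the transcription factor of the epidermal lineage, gave 0.71 (SE 0.16, adjusted p = 0.025), and Sfn, a 14-3-3 protein of stratified epithelium, 1.07 (SE 0.26, adjusted p = 0.034). The suprabasal keratins gave 0.23 (SE 0.42, adjusted p = 0.87) for Krt10 and 0.71 (SE 0.48, adjusted p = 0.55) for Krt1, both without overlap and not past the test. All 11 probe sets of the basal and suprabasal keratins had a positive difference, and 10 of them did not overlap, against 10.8% of all probe sets above WT without overlap. Without D6-deficient replicate 1, no probe set of either list had an adjusted p under 0.05. Other arrays mattered too. Of the 6 fits that each left out 1 array, 4 had an adjusted p under 0.05 for Krt5, 1 for Trp63 and 0 for Sfn. For Krt14 there were 2 on the brightest probe set and 1 on the second.

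Cell cycle genes leaned the same way without passing. Of 43 probe sets, 37 had a positive difference and 25 did not overlap (10.8% of all lay above WT without overlap), with a median of 0.47. None had an adjusted p under 0.05 by limma, where the lowest was 0.20, and 10 had an unadjusted p under 0.05, as did 14.3% of all tested probe sets. Mki67, which marks dividing cells, read 9.05, 8.80 and 9.18 on the WT arrays and 9.97, 9.46 and 9.97 on the D6-deficient arrays, a difference of 0.79 (SE 0.33, adjusted p = 0.26). Top2a gave 0.67 (SE 0.33, adjusted p = 0.35) and Rrm2 0.68 (SE 0.28, adjusted p = 0.25) on their brightest probe sets. When only the day 0 arrays were fitted, 1 of the 43 had an adjusted p under 0.05.

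Genes of fatty acid synthesis made up the list with the most members past the test on the lower side. This list was put together after 4 of its genes had been seen among the called ones, so its counts describe it and support nothing. Of 42 tested probe sets of 20 genes, 33 had a negative difference, 11 were lower (0.855% of all) and 1 was higher (0.713% of all) at an adjusted p under 0.05, and 4 were called lower (0.0694% of all), with a median of -0.57 and 22 of 42 below WT without overlap, against 10.8% of all probe sets. Of the 4 called, 3 are enzymes that lead from citrate to palmitate. Acly, which splits citrate into acetyl-CoA, read 11.14, 11.31 and 12.09 on the WT arrays and 9.86, 9.76 and 9.77 on the D6-deficient arrays, a difference of -1.71 (SE 0.30, adjusted p = 0.0045). Acaca, which carboxylates acetyl-CoA, read 10.80, 10.98 and 11.57 on the WT arrays and 9.34, 9.83 and 8.97 on the D6-deficient arrays, a difference of -1.74 (SE 0.31, adjusted p = 0.0050). Fasn, which builds the fatty acid chain, read 13.05, 13.01 and 13.48 on the WT arrays and 11.35, 12.09 and 10.89 on the D6-deficient arrays, a difference of -1.74 (SE 0.39, adjusted p = 0.024). The groups did not overlap for any of the 3.

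Slc25a10, the dicarboxylate carrier of mitochondria, read 9.08, 9.21 and 9.62 on the WT arrays and 7.95, 7.80 and 7.27 on the D6-deficient arrays, a difference of -1.63 (SE 0.25, adjusted p = 0.0011), and -1.41 (SE 0.21, adjusted p = 8.4e-04) on its brighter probe set. Acly gave -1.31 (SE 0.23, adjusted p = 0.0039) and -1.06 (SE 0.21, adjusted p = 0.012) on further probe sets, with a further dim one at 0.02, and Acaca -1.57 (SE 0.34, adjusted p = 0.018) on a second. Below the fold threshold, Scd2, a desaturase, gave -1.10 (SE 0.23, adjusted p = 0.014) on 1 of the 2 of its 3 probe sets that passed. Me1, a source of NADPH, gave -1.06 (SE 0.27, adjusted p = 0.048) on the dimmer of its 2. The adjusted p of Acly, Acaca and Slc25a10 stayed under 0.05 without any single day 0 array on the called probe sets, whereas that of Fasn was under 0.05 in 1 of the 6 such fits and reached 0.14 without D6-deficient replicate 3. Without WT replicate 3, 5 of the 42 probe sets had an adjusted p under 0.05. Thrsp, a nuclear protein that rises with lipid synthesis, showed the largest difference of the list at -2.13 (SE 0.56, adjusted p = 0.053) and missed the threshold. Elovl6, an elongase, was the member that was higher, at 0.62 (SE 0.14, adjusted p = 0.027) on a dim probe set. Scd1 and the regulator Srebf1 did not pass, at -0.11 and -0.21 on their brightest probe sets.

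Tkt, the transketolase of the pentose phosphate pathway, was also lower. It read 7.90, 6.65 and 8.26 on the WT arrays and 5.25, 5.11 and 5.07 on the D6-deficient arrays, a difference of -2.46 (SE 0.35, adjusted p = 6.2e-04), with -1.40 (SE 0.19, adjusted p = 3.3e-04) and -0.93 (SE 0.15, adjusted p = 0.0019) on its brighter probe sets, so all 3 of its probe sets passed. Fat cell markers gave smaller values. All 15 adipocyte probe sets had a negative difference, with a median of -0.14. By limma none had an adjusted p under 0.05, while 1 had an unadjusted p under 0.05 (14.3% of all tested probe sets did). That was Retn, the fat hormone resistin, which read 13.24, 12.97 and 13.41 on the WT arrays and 11.98, 12.03 and 12.21 on the D6-deficient arrays, a difference of -1.13 (SE 0.30, adjusted p = 0.055). Adipoq, or adiponectin, gave -0.14 (SE 0.21, adjusted p = 0.84) and Cfd, or adipsin, -0.12 (SE 0.09, adjusted p = 0.62). Sebaceous gland markers had 13 positive differences of 17 and a median of 0.48, and 1 passed (1.57% of all tested probe sets did), Soat1 at 0.77 (SE 0.15, adjusted p = 0.0079) on its dimmest probe set. The part of the number of fat or sebaceous cells in the lower lipid genes was not tested.

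Macrophage genes had negative differences throughout. All 13 probe sets of their 9 genes had a negative difference, with a median of -0.53, 11 were below WT without overlap, against 10.8% of all probe sets, and 4 passed the test (background 0.855%). C1qb, a chain of the complement protein C1q, read 11.87, 12.03 and 11.73 on the WT arrays and 10.75, 11.35 and 10.98 on the D6-deficient arrays, a difference of -0.85 (SE 0.18, adjusted p = 0.018). C1qa gave -0.73 (SE 0.17, adjusted p = 0.027), the lysosomal protein Cd68 -0.83 (SE 0.20, adjusted p = 0.038), and Csf1r, the receptor for macrophage growth factor, -0.66 (SE 0.15, adjusted p = 0.022) on the dimmest of its 3 probe sets. The D6-deficient arrays were below all WT arrays for all 4, and each difference was under 2-fold. Without WT replicate 2 none of the 13 had an adjusted p under 0.05, and without D6-deficient replicate 2 there were 5. The adjusted p of these 4 genes was highest without D6-deficient replicate 1, at 0.12 to 0.15. Of the 6 fits without 1 array, 3 had an adjusted p under 0.05 for C1qb, 2 for C1qa, 1 for Cd68 and 3 for Csf1r. When only the day 0 arrays were fitted, 1 of the 13 passed, as did 342 of all tested probe sets. The T cell, Langerhans and dendritic cell and mast cell lists had medians of -0.06, -0.03 and 0.06 and no adjusted p under 0.05.

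**Figure D3:**
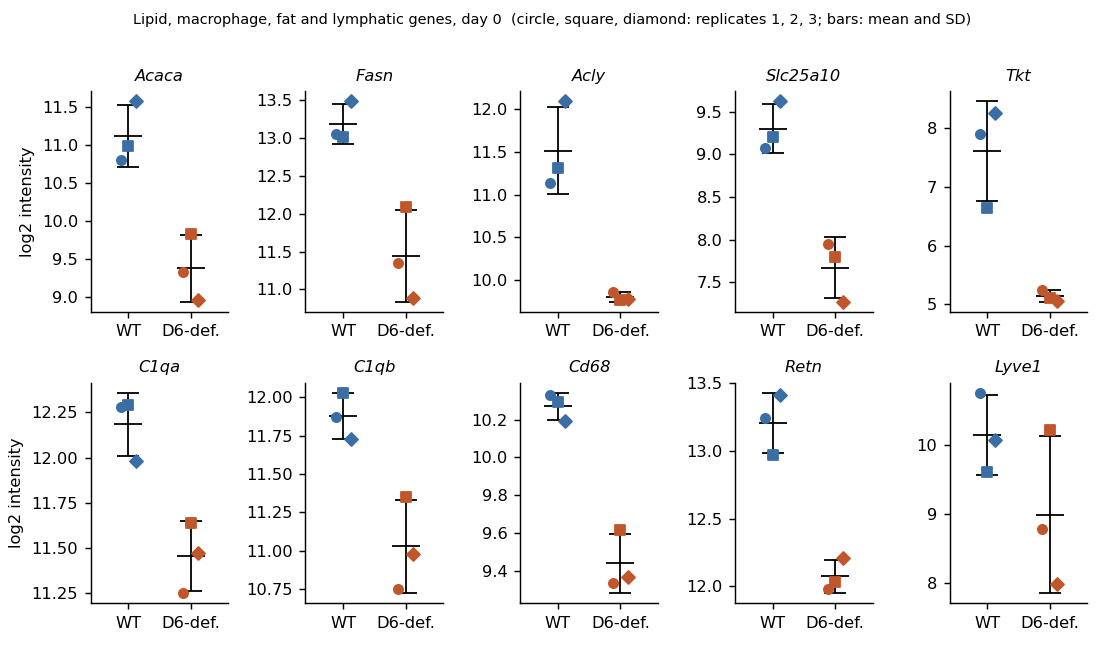
Log2 intensity at day 0 of genes of fatty acid synthesis and Tkt (top row) and of macrophage, fat and lymphatic genes (bottom row), with the y axis scaled to each gene and points and bars as for the epidermal genes. The groups are separate in every panel except Lyve1, where D6-deficient replicate 2 lay above WT replicates 2 and 3. Retn and Lyve1 did not pass the test.

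The cells best known for D6, lymphatic endothelium, had no marker past the test. All 9 probe sets of 6 genes had a negative difference, with a median of -0.23, and by limma none had an adjusted or an unadjusted p under 0.05. Lyve1, the hyaluronan receptor of lymphatic vessels and of some macrophages, read 10.76, 9.61 and 10.07 on the WT arrays and 8.77, 10.22 and 7.98 on the D6-deficient arrays, a difference of -1.16 (SE 0.60, adjusted p = 0.40). It spread widely, since D6-deficient replicate 2 was within the WT range and D6-deficient replicate 3 far below every WT array. Prox1, the lymphatic transcription factor, was dim at 4.60, 4.41 and 4.43 on the WT arrays and 4.61, 3.84 and 4.80 on the D6-deficient arrays and gave -0.06 (SE 0.23, adjusted p = 0.94). Fibroblast and matrix genes had 25 negative differences of 28 and a median of -0.28, again with no adjusted p under 0.05. Of the 28, 6 had an unadjusted p under 0.05 by limma, as did 14.3% of all tested probe sets.

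Interferon-induced genes, which type I interferons raise, had no member that was higher in control skin at an adjusted p under 0.05. Of 47 tested probe sets, 34 had a negative difference, with a median of -0.19, and 1 passed (1.57% of all tested probe sets did). Ddx60, an antiviral helicase, read 8.06, 7.72 and 7.48 on the WT arrays and 6.47, 7.03 and 6.98 on the D6-deficient arrays, a difference of -0.93 (SE 0.21, adjusted p = 0.024), with an adjusted p of 0.15 without D6-deficient replicate 1 and under 0.05 in 2 of the 6 fits without 1 array. Ifit2 gave -0.62 (SE 0.21, adjusted p = 0.13) and Mx1 -0.53 (SE 0.24, adjusted p = 0.32). Of the 13 probe sets with a positive difference, that of Cxcl10, also a member of this list, gave 0.91 without overlap (SE 0.24, adjusted p = 0.051). After TPA the same 47 probe sets had a median difference between the genotypes of 0.59 over days 1, 2, 4 and 6, with 42 higher at an adjusted p under 0.05 (2.28% of all tested probe sets) and 0 lower. The paper lists many of these genes as higher in D6-deficient skin at day 2 on these same arrays, so nothing is read from that share.

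Differences also lay around the D6 gene. Within 10 Mb of Ccbp2 on chromosome 9, by RefSeq positions, 12 of 197 tested probe sets had an adjusted p under 0.05 (6.09%, against 1.57% of all), and besides Ccbp2 they belong to 9 genes. The count ran from 7, without WT replicate 2, to 12. The 2 genes before Ccbp2 that passed were higher. Itga9, an integrin subunit, read 6.62, 6.65 and 5.88 on the WT arrays and 7.46, 7.73 and 7.50 on the D6-deficient arrays, a difference of 1.18 (SE 0.18, adjusted p = 0.0015), and Cck, the peptide cholecystokinin, gave 0.70 (SE 0.16, adjusted p = 0.027). The 7 genes after it that passed were lower, except on 1 of 2 probe sets of Lars2. Lztfl1, 25 genes away, read 5.63, 5.49 and 6.16 on the WT arrays and 3.41, 3.07 and 3.11 on the D6-deficient arrays on its called probe set, a difference of -2.56 (SE 0.27, adjusted p = 1.5e-05), and 2010315B03Rik, 35 genes away, read 7.29, 7.82 and 7.86 on the WT arrays and 5.44, 5.10 and 4.51 on the D6-deficient arrays, a difference of -2.64 (SE 0.30, adjusted p = 4.0e-05).

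Chemokine receptors were among these genes. Over the whole list of chemokine receptors, 18 of 27 tested probe sets had a negative difference, with a median of -0.11. Ccr9, the receptor for Ccl25, read 6.08, 6.08 and 5.86 on the WT arrays and 3.97, 3.78 and 4.31 on the D6-deficient arrays on its called probe set, a difference of -1.98 (SE 0.19, adjusted p = 5.5e-06), the lowest adjusted p among the called probe sets. Ccr2, the monocyte receptor for Ccl2, gave -1.32 (SE 0.23, adjusted p = 0.0041) on its dimmest probe set, while its brightest gave -0.76 (SE 0.22, adjusted p = 0.078) and did not pass. Limd1 gave -0.77 (SE 0.15, adjusted p = 0.012). Lars2, a mitochondrial tRNA synthetase, gave -1.34 (SE 0.15, adjusted p = 4.0e-05) on its brighter probe set and 0.73 (SE 0.16, adjusted p = 0.017) on a dim one, opposite directions for the same gene. Probe sets of a gene disagreed here in further cases. The 3 other probe sets of Ccr9 differed by -0.24 to -0.15 and the 4 others of Lztfl1 by -0.61 to 0.28, none with an adjusted p under 0.05. The labels give the strain as 129–C57BL/6 for both genotypes, so loss of D6 and sequence inherited along with the targeted locus cannot be told apart for these genes.

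Further called decreases lay outside these groups, among them those of Apod and Trim12a, the 2 largest of all called. Apod, the lipid carrier apolipoprotein D, read 7.27, 8.30 and 7.84 on the WT arrays and 4.04, 3.84 and 3.58 on the D6-deficient arrays on its called probe set, a difference of -3.98 (SE 0.50, adjusted p = 1.7e-04), while its brighter probe set gave -0.44 (SE 0.17, adjusted p = 0.21). Trim12a, a tripartite motif protein, read 6.82, 6.86 and 6.85 on the WT arrays and 3.28, 2.88 and 3.15 on the D6-deficient arrays, a difference of -3.74 (SE 0.71, adjusted p = 0.0074), and its second probe set gave -0.03. Trim34, which belongs to the same family on chromosome 7, read 7.26, 7.63 and 7.48 on the WT arrays and 4.72, 4.97 and 5.14 on the D6-deficient arrays, a difference of -2.52 (SE 0.55, adjusted p = 0.018), and its second probe set gave 0.51. In all 3 genes a single probe set carried the difference, and its arrays did not overlap. Tsc22d1, a leucine zipper regulator, read 6.40, 7.10 and 6.22 on the WT arrays and 4.22, 3.75 and 4.37 on the D6-deficient arrays on its called probe set, a difference of -2.46 (SE 0.40, adjusted p = 0.0020), and differences of 0.09 to 0.29 on its 4 others. The calcium channel subunit Cacna2d1 read 5.24, 6.03 and 5.48 on the WT arrays and 3.59, 3.57 and 3.87 on the D6-deficient arrays, a difference of -1.90 (SE 0.41, adjusted p = 0.017), and differences of -0.51 to 0.19 on 4 others. These genes, too, were lower on 1 probe set each. The adjusted p rose to 0.099 without D6-deficient replicate 1 for Trim34 and to 0.091 without WT replicate 2 for Cacna2d1, and was under 0.05 in 2 and 4 of the 6 fits without 1 array. The 4 called probe sets without a symbol differed by -3.65, -3.41, -2.14 and -1.82.

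Adamdec1, a metalloprotease-like protein of macrophages and dendritic cells, read 5.78, 5.71 and 6.52 on the WT arrays and 3.75, 3.50 and 3.53 on the D6-deficient arrays, a difference of -2.41 (SE 0.49, adjusted p = 0.013). Igh-6, the heavy chain of IgM, read 11.70, 11.35 and 11.28 on the WT arrays and 9.79, 9.87 and 9.47 on the D6-deficient arrays, a difference of -1.73 (SE 0.29, adjusted p = 0.0024), and -1.46 (SE 0.24, adjusted p = 0.0022) on another probe set. Its 4 other probe sets differed by -0.28 to -0.01, and the B cell markers had a median of 0.02, with no adjusted p under 0.05 over 4 probe sets. In a list of immunoglobulin and B cell genes made after the calls were seen, the 2 of 12 probe sets that passed (1.57% of all did) were these of Igh-6. Aldh1a7, an aldehyde dehydrogenase, read 10.31, 10.11 and 10.39 on the WT arrays and 8.40, 9.12 and 7.54 on the D6-deficient arrays, a difference of -1.92 (SE 0.47, adjusted p = 0.037). Comt1, which methylates catecholamines, gave -1.76 (SE 0.45, adjusted p = 0.046) and -0.92 (SE 0.20, adjusted p = 0.019) on its 2 probe sets. Plekhf1 gave -1.86 (SE 0.34, adjusted p = 0.0051), Lrrc17 -1.59 (SE 0.25, adjusted p = 0.0018) and the pseudogene Pisd-ps3 -1.89 (SE 0.31, adjusted p = 0.0023), with 2 further probe sets lower and 2 near 0.14 and 0.16. All of these were below WT without overlap on the called probe set. The adjusted p rose past 0.05 without single arrays, to 0.068 without WT replicate 3 for Adamdec1, 0.19 without D6-deficient replicate 3 for Aldh1a7, 0.18 without D6-deficient replicate 1 for Comt1 and 0.054 without D6-deficient replicate 1 for Plekhf1. Of the 6 such fits it was under 0.05 in 4 for Adamdec1, 1 for Aldh1a7, 1 for Comt1 and 5 for Plekhf1.

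A further 7 called genes were higher and belong to none of the epidermal, antimicrobial and cytokine lists. C130079G13Rik read 5.57, 5.14 and 5.33 on the WT arrays and 7.16, 7.33 and 7.42 on the D6-deficient arrays, a difference of 1.95 (SE 0.20, adjusted p = 1.5e-05) and the lowest adjusted p among the probe sets called higher. Gng4, a subunit of heterotrimeric G proteins, read 5.55, 5.36 and 5.60 on the WT arrays and 7.28, 7.67 and 7.90 on the D6-deficient arrays, a difference of 2.11 (SE 0.29, adjusted p = 3.3e-04), with 1.51 and -0.01 on its 2 others. Prtn3, the granule protease proteinase 3, read 5.88, 6.03 and 5.71 on the WT arrays and 8.19, 7.53 and 7.32 on the D6-deficient arrays, a difference of 1.81 (SE 0.43, adjusted p = 0.032). These 3 were separate between genotypes, with WT arrays close together. AU019157 read 4.75, 4.97 and 4.34 on the WT arrays and 6.82, 5.92 and 6.88 on the D6-deficient arrays, a difference of 1.85 (SE 0.24, adjusted p = 2.5e-04). Zfp874a, a zinc finger gene, read 3.84, 3.99 and 3.53 on the WT arrays and 6.11, 5.38 and 4.93 on the D6-deficient arrays, a difference of 1.69 (SE 0.41, adjusted p = 0.037). Arsk, an arylsulfatase, read 4.64, 5.11 and 5.16 on the WT arrays and 7.73, 6.74 and 6.87 on the D6-deficient arrays on 1 probe set, a difference of 2.14 (SE 0.43, adjusted p = 0.012), while the other gave -0.05. Abhd1, a hydrolase, read 5.62, 5.47 and 7.58 on the WT arrays and 8.18, 7.52 and 7.80 on the D6-deficient arrays and gave 1.61 (SE 0.42, adjusted p = 0.048), with WT replicate 3 among the D6-deficient arrays. Apart from Abhd1, the arrays of the genotypes did not overlap for these genes. The adjusted p reached 0.17 without D6-deficient replicate 1 for Prtn3, 0.20 without D6-deficient replicate 1 for Zfp874a, 0.096 without D6-deficient replicate 1 for Arsk and 0.23 without WT replicate 2 for Abhd1. It was under 0.05 in 0 of the 6 fits without 1 array for Prtn3, 1 for Zfp874a, 5 for Arsk and 1 for Abhd1.

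Of the 38 lists, 18 had no probe set with an adjusted p under 0.05 by limma, with 43 of their 340 probe sets under an unadjusted p of 0.05 (14.3% of all tested probe sets were). The medians of muscle, melanocyte, Schwann cell, hair shaft, hair growth, MHC class I and antioxidant genes lay between -0.09 and 0.15, that of blood endothelium was -0.09 and that of the 4 red blood cell probe sets 0.46. The clock genes had 1 probe set of 34 that passed (1.57% of all tested probe sets did), and their median was 0.04. The probe set that passed was that of Cry1, at 0.52 (SE 0.11, adjusted p = 0.018). Its adjusted p was 0.12 without WT replicate 2 and under 0.05 in 2 of the 6 fits without 1 array.

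**Figure D4:**
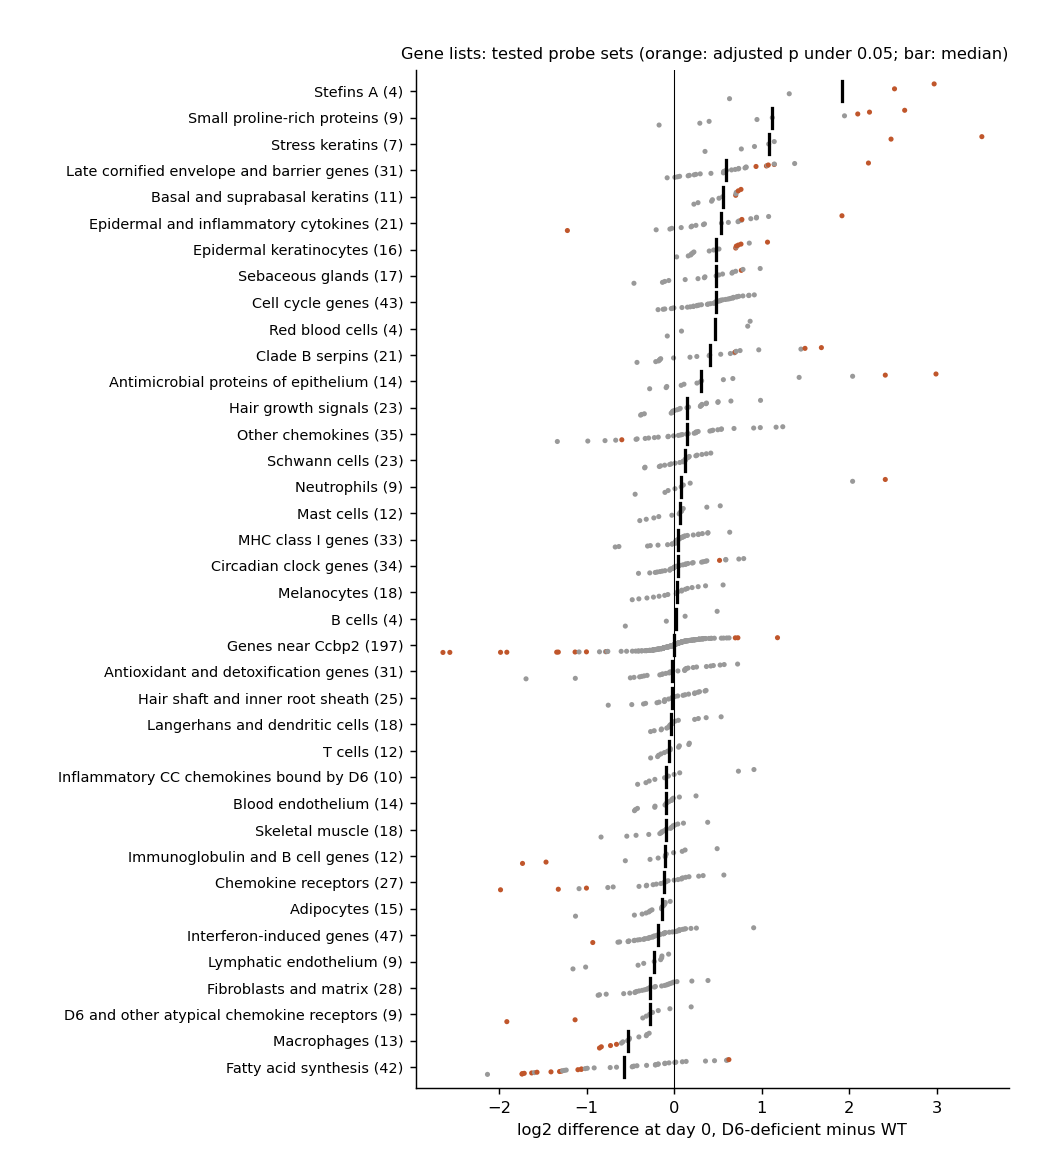
Log2 difference at day 0, D6-deficient minus WT, of every tested probe set of each list, with lists ordered by their median (black bar) and the number of probe sets in parentheses. Orange points have an adjusted p under 0.05. Stefins, small proline-rich proteins and stress keratins lie farthest to the right, at medians of 1.92, 1.12 and 1.08, and macrophages and fatty acid synthesis farthest to the left, at -0.53 and -0.57.

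Whether the control differences were also present after TPA was asked on the arrays of days 1, 2, 4 and 6, which share none with day 0. Of the 44 called probe sets, 19 had an adjusted p under 0.05 and the same sign for the mean genotype difference over those days (3.27% of all tested probe sets did, and 5.65% passed with either sign), 4 of the 19 higher and 15 of the 25 lower. The 4 were Defb3 (1.09 after TPA), AU019157 (1.47), Prtn3 (1.06) and Abhd1 (1.43). Genes that stayed lower included Apod (-3.13), Trim12a (-2.89), 2010315B03Rik (-2.59), Lztfl1 (-2.24), Trim34 (-1.92) and Ccbp2 (-1.28).

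In 17 of the 44 the day 0 difference itself differed from that after TPA (1.98% of all tested probe sets did), 8 of the 19 higher and 9 of the 25 lower. The 44 were chosen for their day 0 values, which this contrast contains, so nothing is read from the share over all probe sets. A fit without 1 array makes its own calls, and the count is then taken over the probe sets called in that fit. It was 8 of 28 without D6-deficient replicate 3, 9 of 27 without D6-deficient replicate 1 and 11 of 37 without WT replicate 2. It was 26 of 53 without WT replicate 1 and 41 of 68 without D6-deficient replicate 2. Krt6b gave 0.38 after TPA against 3.51 before it, a change that did not pass. The probe set of BC100530 and Stfa1 gave 0.04, Sprr2d 0.17 and Stfa3 0.13, and these changes passed. Their WT and D6-deficient means on day 2 were 14.55 and 14.63, 13.82 and 13.67, and 13.93 and 13.87. The highest day 0 value of any probe set was 14.97, and whether the arrays can show a difference at such levels was not tested. On day 6 the means of Sprr2d were lower, at 11.03 and 11.43. Il1f6 gave -0.33 after TPA, with the opposite sign. On the lower side Tkt gave 0.01, Acly -0.34 and Slc25a10 -0.27 and passed, while Fasn at -0.65 and Acaca at -0.49 did not. Over the whole lists the median difference after TPA was 0.45 for stress keratins, -0.46 for late cornified envelope and barrier genes, -0.03 for macrophages and -0.08 for fatty acid synthesis.

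**Figure D5:**
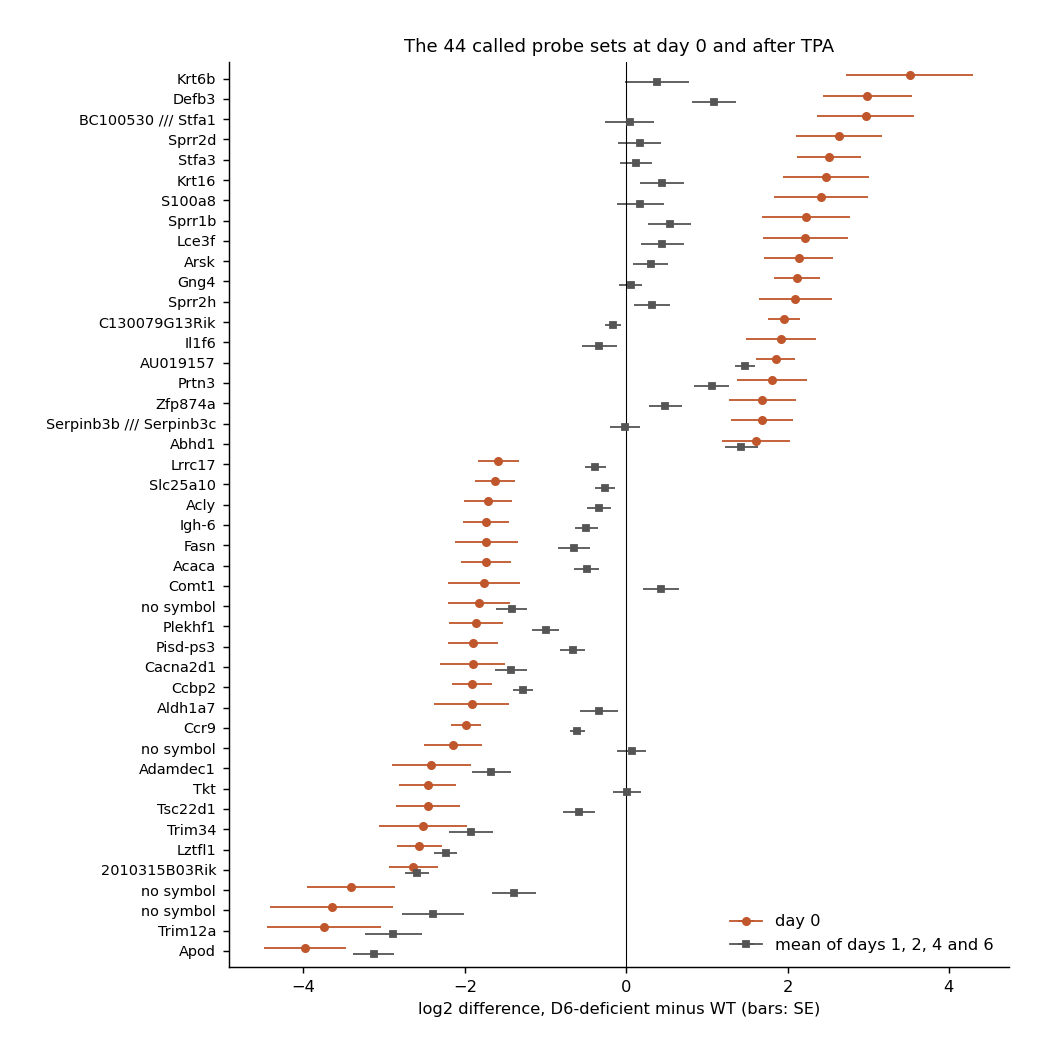
Log2 difference, D6-deficient minus WT, of the 44 called probe sets at day 0 (orange circles) and as the mean of days 1, 2, 4 and 6 after TPA (gray squares), ordered by the day 0 difference, with bars of 1 SE. Gray squares lie near 0 for most epidermal genes at the top and near the day 0 value for 2010315B03Rik, Lztfl1, AU019157 and Abhd1.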

How the data were processed

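Per the labels and methods, RNA of whole back skin was hybridized to Affymetrix mouse arrays, 1 mouse per array, and the authors background-corrected, quantile-normalized and summarized the probes by RMA. They deposited linear intensities for 45101 probe sets without the baseline transformation that the methods describe, and the log2 of these deposited intensities was used without further scaling. The genome build is not given in the sources used here. A second deposited text holds a sample sheet and was not used.

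Control probe sets (64) were left out, then, as in the methods, the dimmest 20% by their mean across the 30 arrays, so 36029 probe sets with a mean log2 above 3.72 were tested. limma 3.58.1 in R 4.3.3 was fitted to the 30 arrays together, with a mean for each genotype and day (20 residual degrees of freedom), and the genotypes were contrasted at day 0. SEs and p values therefore use a spread pooled over all groups. For a given probe set it can be smaller or larger than the spread of the day 0 arrays. Adjusted p values are Benjamini-Hochberg values over all tested probe sets. Called probe sets had both an adjusted p below 0.05 and a difference of more than 3-fold, where the methods use unpaired t tests. The mean genotype difference of days 1, 2, 4 and 6, and its difference from day 0, came from the same fit. In simulated arrays of this design with 100 probe sets changed by 2 and 100 by 3 log2 units, 95% and 100% were called, with 0 false calls. The simulated noise was independent between probe sets and had the same spread in every group. These rates therefore do not cover genes that spread widely at day 0, such as Krt6b and S100a8, or that vary together between arrays.

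Groups came from the labels. Alternatives covered the arrays, block, covariate, scaling, filter, weights, threshold and test. Named genes were Ccbp2, every called probe set, up to 4 members per list with the smallest p by their brightest probe set, with other probe sets where these differ, and genes within 10 Mb of Ccbp2 at an adjusted p under 0.05. Further genes named in the lists and the 12 largest differences that were not called were chosen after their values were seen. Some genes that these rules name are not reported here. Members and lists were chosen with earlier results of these data known, and the lists of fatty acid synthesis and of immunoglobulin and B cell genes were added after the calls were seen. Symbols are those of the array annotation, and RefSeq (GRCm38.p6) was used for names, gene order and promoters. The number of arrays limits the precision: with 3 arrays on each side, the smallest p of an exact permutation test is 0.1. Figures were drawn in Python 3.11.15 with matplotlib 3.10.9.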

Additional observations from a re-analysis of the deposited data

Results flagged for a closer look

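For 43 of the probe sets named or listed, the genotype difference in control skin differed from the mean genotype difference of days 1, 2, 4 and 6 after TPA, by limma at an adjusted p under 0.05 over all tested probe sets. Called probe sets were chosen for their day 0 values, which this contrast contains. The values below are the day 0 difference minus the later difference, on the log2 scale, and the adjusted p values run from 5.8e-05 for C130079G13Rik to 0.048 for Ccl22.

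Among the called genes that were higher at day 0, the value was 2.93 for the probe set of BC100530 and Stfa1, 2.47 for Sprr2d, 2.39 for Stfa3, 2.25 for Il1f6 and 1.70 for that of Serpinb3b and Serpinb3c. Outside the epidermal lists it was 2.12 for C130079G13Rik, 2.06 for Gng4 and 1.84 for Arsk. Among the called genes that were lower it was -2.47 for Tkt, -2.19 for Comt1, -1.88 for Tsc22d1, -1.38 for Acly, -1.37 for Ccr9 and -1.36 for Slc25a10. It was -1.24 for Igh-6, -1.20 for Lrrc17 and -2.21 for the called probe set without a symbol whose day 0 difference was -2.14.

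Of the epidermal genes that were not called, the value was 0.81 for Krt5, 0.75 for Krt14, 0.70 for Trp63, 1.06 for Cnfn, 1.48 for Casp14, 1.28 for Lce1f and 1.44 for Cyp2b19, an epidermal cytochrome P450. For clade B serpins it was 1.79 for Serpinb3a, 1.57 for the second probe set of Serpinb3b and Serpinb3c and 0.81 for Serpinb5. For cytokines and chemokines it was 1.28 for Il1f5, 1.81 for Ccl20, 1.09 for Ccl22 and -1.65 for Tslp, and for the growth factor Fgf18 it was 1.50.

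The macrophage genes gave -0.85 for C1qb, -0.81 for C1qa and -0.91 for Cd68, each lower at day 0 and near 0 after TPA. Interferon-induced genes gave -1.78 for Ifit2, -1.45 for Ddx60 and -1.18 for Dhx58, each with a negative difference at day 0 and a positive one after TPA. The paper lists these genes as higher in D6-deficient skin at day 2, and the later difference includes those arrays. The lipid genes gave -1.03 for the brightest probe set of Acly, -1.11 for that of Slc25a10, 1.12 for Acsbg1 and 1.01 for Elovl4, and Cck, near the D6 gene, gave 0.78.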

How the results depend on the processing

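None of 125 single probe sets changed sign under 15 alternative fits, where it had a value. Over these probe sets and fits, 262 values lost the threshold and 59 gained it in the same direction, apart from the D6 probe set described below. Without single day 0 arrays, the called count ran from 27 to 68, the higher calls from 7 to 34 and the lower calls from 17 to 34. The probe sets at an adjusted p under 0.05 ran from 141 to 494. Among the probe sets called in each such fit, those also past the test after TPA ran from 13 to 20. Those that differed from later days ran from 8 to 41, also among the calls of each fit. The difference of Ccbp2 ran from -2.09 to -1.73. Of the 44, 20 kept an adjusted p under 0.05 without any single day 0 array.

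With only the 6 day 0 arrays fitted, 8 probe sets were called higher, 342 had an adjusted p under 0.05, and 29 of the 44 kept one. The replicate numbers were not taken to pair the mice. Deviations of same-numbered arrays from their group means correlated at -0.088, -0.037 and -0.075, and no array correlated best with its own number. With the number as a replicate block, 8 probe sets were called, 0 higher and 8 lower, 8 had an adjusted p under 0.05, and Ccbp2, at -1.91, had an adjusted p of 0.054.

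The hybridization control sets as a covariate gave 38 lower calls and 29 that differed from later days. Array weights gave 76 calls, 35 higher and 41 lower, raised the count at an adjusted p under 0.05 to 2091, and left 32 also past the test after TPA and 44 that differed from later days. With 1 probe set per gene symbol, 27 were called, 11 of them lower, 11 were also past the test after TPA and 9 differed from later days. Leaving out the lowest 50% of probe sets left 11 also past the test after TPA. In the last 2 settings Ccbp2 had no value for its called probe set. A 2-fold threshold gave 162 calls (61 higher, 101 lower) and no fold threshold 565 (257 higher, 308 lower). The methods' t-test called 55 (20 higher, 35 lower), of which 36 were among the 44, and after Benjamini-Hochberg 1, with 0 higher and 1 lower. The cause of these changes was not tested.

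With 3 arrays per genotype, a probe set that misses the threshold is not shown to be equal between genotypes. Littermate status and the tissue's cell makeup are not known.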

Other observations

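Some of the largest differences at day 0 did not pass the test, and these genes were chosen after their values were seen. Phgdh, the first enzyme of serine synthesis, read 9.59, 9.31 and 9.22 on the WT arrays and 4.58, 4.12 and 4.83 on the D6-deficient arrays, a difference of -4.86 with an adjusted p of 0.057 by limma. The groups did not overlap, and the mean difference after TPA was -2.29. Pyhin1, an interferon-inducible protein of the HIN-200 family, read 9.20, 8.57 and 8.90 on the WT arrays and 5.59, 5.33 and 5.58 on the D6-deficient arrays, a difference of -3.39 (adjusted p = 0.10), against -0.19 after TPA. BC018473 read 3.64, 4.27 and 3.85 on the WT arrays and 7.64, 6.90 and 6.97 on the D6-deficient arrays, a difference of 3.25 (adjusted p = 0.10). The arrays of the genotypes were separate for both.

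Ifi202b, another member of the HIN-200 family, read 6.44, 10.14 and 6.27 on the WT arrays and 10.46, 10.54 and 10.33 on the D6-deficient arrays on 1 of its probe sets, a difference of 2.83 (adjusted p = 0.096). WT replicate 2 stood with the D6-deficient arrays, and the other WT arrays far below them. Cd209a, a lectin of dendritic cells, read 9.11, 9.10 and 9.76 on the WT arrays and 5.41, 5.81 and 8.61 on the D6-deficient arrays, a difference of -2.71 (adjusted p = 0.11), and -3.82 after TPA. Nnat, or neuronatin, read 9.30, 6.11 and 6.67 on the WT arrays and 10.25, 9.74 and 9.28 on the D6-deficient arrays (adjusted p = 0.20). In these genes 1 array of a genotype stood apart from the other 2.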
